A study of Gallus gallus with 6 samples.

Results

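The endothelin system was read on 8 of the 20804 probe sets of the array, which are those whose platform gene symbol is *EDN1*, *EDN2*, *EDN3*, *ECE1*, *EDNRA*, *EDNRB* or *EDNRB2*. All 7 genes were found, *ECE1* with 2 probe sets and each of the others with 1. The probe sets were taken by gene symbol, and none was removed by a filter. The tissues came from the ductus arteriosus (DA), the embryonic vessel that carries blood past the lung, and its neighbour: the proximal DA, next to the pulmonary artery, the distal DA, where it joins the aorta, and the descending aorta of Hypeco Nera chick embryos at the internal pipping (IP) stage, when the beak has entered the air cell and lung breathing begins. Each tissue had 2 arrays, which makes 6, each from tissue of 10 pooled embryos, and the DA was that of the right side. The sources used here leave unstated whether both arrays of a tissue shared a pool of embryos. A p-value therefore reflects only how these arrays varied, which may be technical.

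Endothelins are short vasoactive peptides. They are cut from inactive precursors, the big endothelins, by the membrane metallopeptidase that *ECE1* encodes, and they act on receptors coupled to G proteins. The A receptor, *EDNRA*, is known from smooth muscle, where it raises cytosolic calcium and causes a lasting contraction, and from the cranial and cardiac neural crest. The B receptor, *EDNRB*, is known from endothelium, where it releases nitric oxide and clears the peptide, and from neural crest cells. Birds carry a further B type receptor, *EDNRB2*, known from the melanoblasts of quail and chick. The peptide of *EDN1* comes mainly from endothelium and acts on both receptor types, whereas that of *EDN3* acts mainly on B receptors and is known from neural crest derivatives. Contraction of the mammalian DA to endothelin has long been studied, and the avian DA is compared here only at the level of mRNA.

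Values are log2 intensities after robust multi-array average (RMA), so that 1 unit is a doubling of intensity. The words higher and lower are used of a probe set at a Benjamini-Hochberg adjusted p under 0.05 from 1 limma fit over the 6 arrays and all probe sets. The values carry no detection call. The lower quartile of an array lay between 5.25 and 5.41, and a fold that involves a value below it is only approximate. Of the 48 values of the 8 probe sets, 1 was below the lower quartile of its own array, the value of *EDNRB2* in aorta replicate 1. Levels of different probe sets are not compared with each other, since probes differ in brightness.

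Compared with the aorta, *EDN1*, *EDNRA* and *EDNRB2* were higher in the proximal DA, and *EDNRA* also in the distal DA. In the proximal DA, 3 of the 8 probe sets were called higher and 0 lower, against 3.33% and 2.34% of all probe sets on the array (5.66% in either direction). In the distal DA, 1 of the 8 was called higher and 0 lower, against 0.952% and 0.644% of all probe sets (1.6% in either direction). Of the proximal relative to the distal DA, 0 of the 8 were called higher and 0 lower by limma, against 0.159% and 0.0913% of all probe sets (0.25% in either direction), and 2 of the 8 had an unadjusted p under 0.05, as did 7.31% of all. Against the aorta, an unadjusted p under 0.05 was found for 5 members in the proximal and 3 in the distal DA, against 18.1% and 10.8% of all probe sets. The values of both tissues did not overlap for 6 of the 8 in the proximal DA and the aorta (42.2% of all probe sets), for 6 in the distal DA and the aorta (39.7%) and for 5 in the 2 parts of the DA (32.7%), so that non-overlap was common on these arrays. The median log2 difference of the 8 probe sets was 0.55 for the proximal DA over the aorta, 0.30 for the distal DA over the aorta and 0.22 for the proximal over the distal DA, where the medians over all probe sets were -0.015, -0.005 and -0.02. Both comparisons with the aorta used the same 2 aorta arrays. Without proximal DA replicate 2, 0 of the 8 were called in the proximal DA, and with any 1 array left out, 0 were called in the distal DA.

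**Figure D1:**
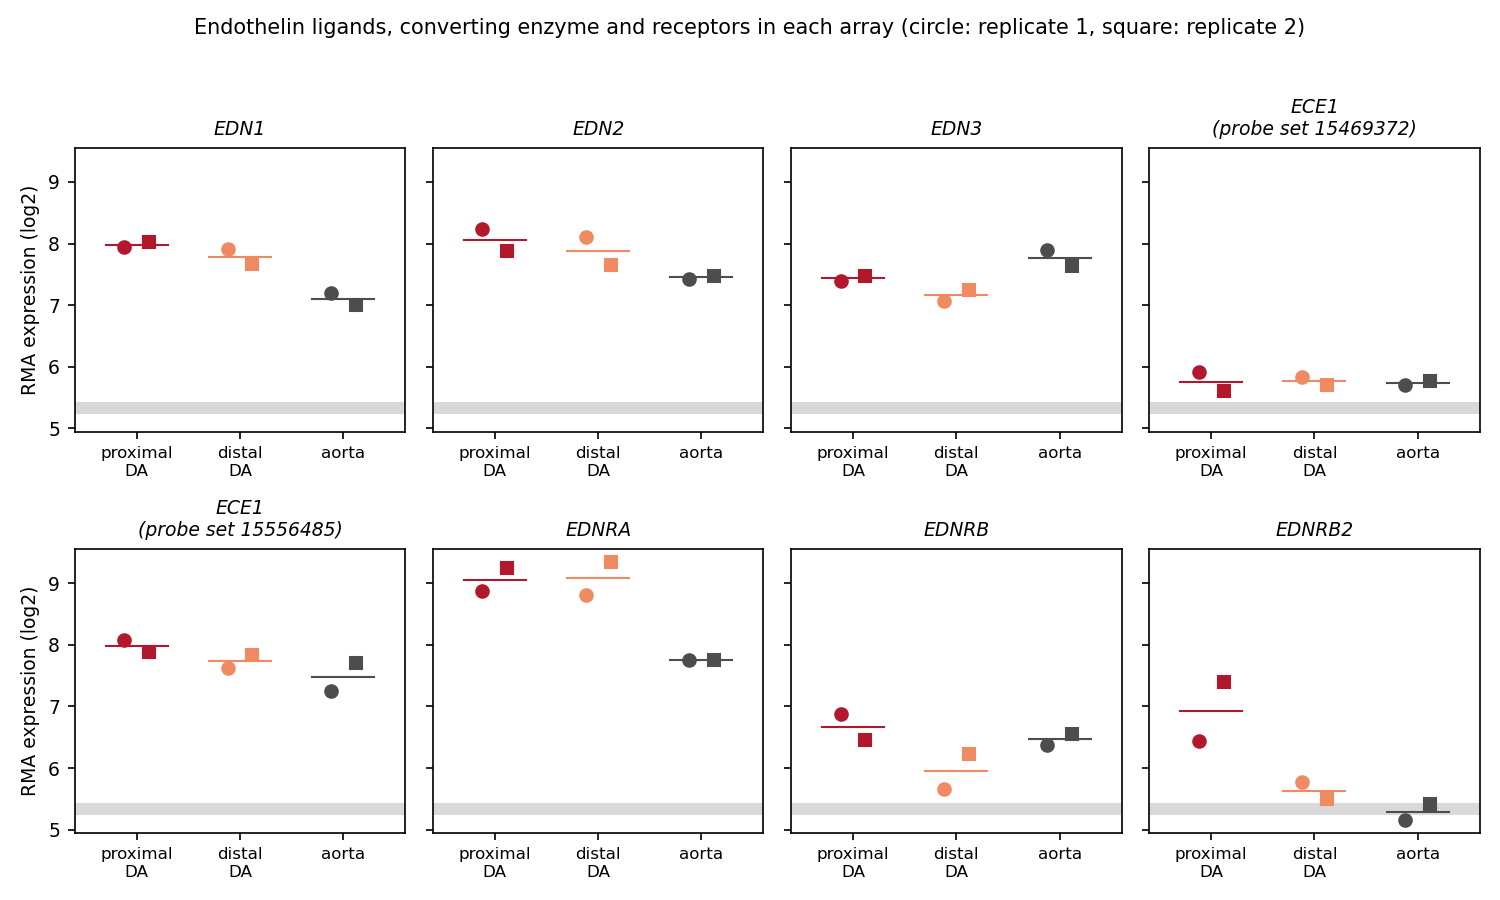
RMA expression (log2) of the 8 probe sets in each array, by tissue, with replicate 1 as a circle, replicate 2 as a square and the tissue mean as a line; the grey band spans the lower quartiles of the 6 arrays (5.25 to 5.41). Both values of *EDN1*, *EDNRA* and *EDNRB2* in the proximal DA lie above both values in the aorta, and the 2 proximal DA values of *EDNRB2* (6.44 and 7.40) lie far apart.

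Among the ligands, *EDN1* was higher in the proximal DA than the aorta. The values of *EDN1* were 7.95 and 8.02 in the 2 proximal DA arrays, 7.91 and 7.67 in the distal DA arrays and 7.20 and 7.01 in the aorta. Both parts of the DA lay above both aorta arrays, and the lower proximal value was just above the higher distal one. Over the aorta, the proximal DA had a log2 difference of 0.88 (SE 0.15, limma adjusted p = 0.0182), which is 1.84-fold with a 95% confidence interval of 1.43 to 2.36. In the distal DA it was 0.69, or 1.61-fold (interval 1.25 to 2.06), and this did not pass over all probe sets (limma adjusted p = 0.0993). The proximal and distal DA differed by 0.20, with an interval of -0.17 to 0.56, which reaches 1.47-fold at its upper end. The call in the proximal DA was lost without aorta replicate 2 (limma adjusted p = 0.0811), proximal DA replicate 1 (0.0735) or proximal DA replicate 2 (0.101).

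The values of *EDN2*, whose peptide is close in sequence to that of *EDN1*, were 8.23 and 7.88 in the proximal DA, then 8.10 and 7.65 in the distal DA and 7.43 and 7.47 in the aorta. All 4 DA values lay above the aorta, but the arrays of the DA were 0.35 and 0.45 apart within a tissue. Over the aorta the proximal DA differed by 0.61 on the log2 scale (interval 0.14 to 1.07, limma adjusted p = 0.15) and the distal DA by 0.43 (interval -0.04 to 0.89, limma adjusted p = 0.522), and neither passed.

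For *EDN3* the aorta held the highest values. They were 7.39 and 7.48 in the proximal DA, with 7.07 and 7.25 in the distal DA and 7.90 and 7.63 in the aorta, and no 2 tissues overlapped. The log2 difference of the distal DA from the aorta was -0.61 (interval -0.97 to -0.24, unadjusted p = 0.00569), which did not pass over all probe sets (limma adjusted p = 0.151). That of the proximal DA was -0.33 (interval -0.70 to 0.04, limma adjusted p = 0.336). The aorta thus had the lowest mean for *EDN1* and the highest for *EDN3*. Within an array, the log2 value of *EDN1* minus that of *EDN3* was 0.56 and 0.54 in the 2 proximal DA arrays, 0.84 and 0.42 in the distal DA arrays and -0.70 and -0.62 in the aorta. From the aorta, *EDN1* differed by 1.21 more than *EDN3* on the proximal side and by 1.29 more on the distal side, and this was not tested.

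The converting enzyme *ECE1* did not differ between the tissues beyond the threshold at either probe set. At probe set 15556485 the values were 8.08 and 7.88 in the proximal DA, then 7.62 and 7.84 in the distal DA and 7.25 and 7.71 in the aorta. The proximal DA lay above the other 2 tissues, which overlapped with each other. Its log2 difference from the aorta was 0.50, or 1.41-fold with an interval of 1.03 to 1.93 (unadjusted p = 0.0344, limma adjusted p = 0.223). At probe set 15469372 the 6 values ran only between 5.60 and 5.92, and all tissues overlapped. There the proximal DA minus the aorta was 0.03 with an interval of -0.35 to 0.40. The 2 probe sets had a Pearson's r of 0.301 over the 6 arrays, as a description, and the dimmer lay between the 30.9th and the 34.6th percentile of its arrays.

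The receptor *EDNRA* was higher in both parts of the DA, at nearly the same level in each. It had 8.87 and 9.25 in the proximal DA, with 8.81 and 9.35 in the distal DA and 7.76 in both aorta arrays. The DA values were over 1 log2 unit above the aorta in every array, and both proximal values lay between the distal ones. Over the aorta the proximal DA differed by 1.30 (SE 0.22, limma adjusted p = 0.0147), or 2.46-fold with an interval of 1.74 to 3.49, and the distal DA by 1.32 (SE 0.22, limma adjusted p = 0.0335), or 2.50-fold with an interval of 1.76 to 3.54. The proximal minus the distal DA was -0.02, with an interval of -0.52 to 0.48. The call in the proximal DA was lost without proximal DA replicate 2 (limma adjusted p = 0.101). The call in the distal DA was lost with any 1 of the 6 arrays left out (limma adjusted p from 0.0593 to 0.181) and in a fit of only the distal DA and the aorta (0.0593), while the log2 difference then stayed between 1.05 and 1.59.

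Smooth muscle genes were higher where *EDNRA* was. The measured markers *MYH11*, *TAGLN*, *MYLK*, *TPM1*, *SYNPO2* and *MYOCD*, of contractile filaments and their transcription, were all called higher in the distal DA, and 5 of the 6, without *MYLK*, in the proximal DA. Their mean level was 11.0 and 11.2 in the 2 proximal DA arrays, 10.9 and 10.9 in the distal DA arrays and 9.29 and 9.31 in the aorta, and the median log2 difference was 1.63 for the proximal and 1.54 for the distal DA over the aorta. The calls in the distal DA numbered 3 when any 1 aorta or distal DA array was left out. This list was measured in part only. *DES*, also on it, was not found under a single symbol, and the paper has it among its top genes for both parts of the DA over the aorta. In pooled tissue, fewer cells of a type and less RNA per cell cannot be told apart, and the part of cell composition in the values of *EDNRA* was not tested.

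The B receptor *EDNRB* had its lowest mean in the distal DA. It had 6.87 and 6.45 in the proximal DA, then 5.66 and 6.23 in the distal DA and 6.38 and 6.55 in the aorta. The proximal DA and the aorta overlapped, and the distal DA lay below both. The proximal minus the distal DA was 0.72 (SE 0.23, interval 0.18 to 1.25, unadjusted p = 0.016), which did not pass over all probe sets (limma adjusted p = 0.419). The distal DA minus the aorta was -0.52 (interval -1.06 to 0.02, limma adjusted p = 0.488), and the proximal DA minus the aorta was 0.20 (interval -0.34 to 0.73).

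The log2 value of *EDNRA* minus that of *EDNRB* was 2.0 and 2.80 in the proximal DA, with 3.15 and 3.12 in the distal DA and 1.38 and 1.21 in the aorta. No 2 tissues overlapped in this difference, and it was largest in the distal DA. From the aorta, *EDNRA* differed by 1.11 more than *EDNRB* on the proximal side and by 1.84 more on the distal side. No test was made of these differences between changes.

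**Figure D2:**
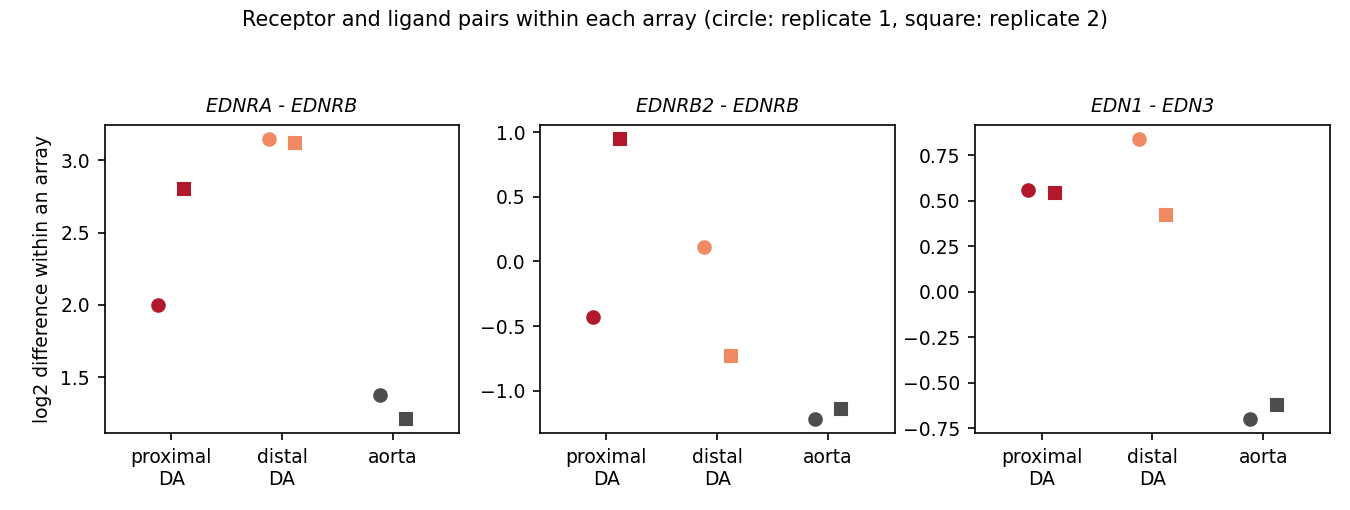
Difference of the log2 values of 2 probe sets within each array, for *EDNRA* minus *EDNRB*, *EDNRB2* minus *EDNRB* and *EDN1* minus *EDN3*, by tissue (circle, replicate 1; square, replicate 2). Only shifts between tissues can be read, since probe sets differ in brightness: *EDNRA* minus *EDNRB* is 3.15 and 3.12 in the distal DA, against 1.38 and 1.21 in the aorta.

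The further B type receptor *EDNRB2* was highest in the proximal DA. Its values were 6.44 and 7.40 in the 2 proximal DA arrays, 5.77 and 5.50 in the distal DA arrays and 5.16 and 5.41 in the aorta. No 2 tissues overlapped, but the proximal arrays were 0.96 apart, more than those of any other endothelin probe set within a tissue. Between the proximal DA and the aorta the log2 difference was 1.64 (SE 0.30, limma adjusted p = 0.0212), or 3.11-fold with an interval of 1.92 to 5.03. As 1 aorta value lay below the lower quartile of its array, the fold is approximate. The other aorta value lay just above its lower quartile of 5.38. The distal values were not far above theirs, 5.41 and 5.33, so the fold over the distal DA may also be approximate. The proximal minus the distal DA was 1.29, or 2.44-fold with an interval of 1.50 to 3.95 (unadjusted p = 0.00306), and did not pass over all probe sets (limma adjusted p = 0.213). The distal DA minus the aorta was 0.35 (interval -0.35 to 1.05, limma adjusted p = 0.806). By quantitative PCR at the IP stage, the paper found *EDNRB2* in the proximal DA but below the detection limit in the distal DA. In the aorta the paper hardly detected it at any stage. From these same arrays, the paper lists it among the melanogenesis genes enriched in the proximal over the distal DA, so that list is not a separate result. The call against the aorta was lost without aorta replicate 1 (limma adjusted p = 0.0635) or proximal DA replicate 2 (0.0597), where the log2 difference was 1.16. Within an array, *EDNRB2* minus *EDNRB* was -0.43 and 0.95 in the proximal DA, with 0.11 and -0.73 in the distal DA and -1.22 and -1.14 in the aorta, and these overlapped between the 2 parts of the DA but not with the aorta.

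**Figure D3:**
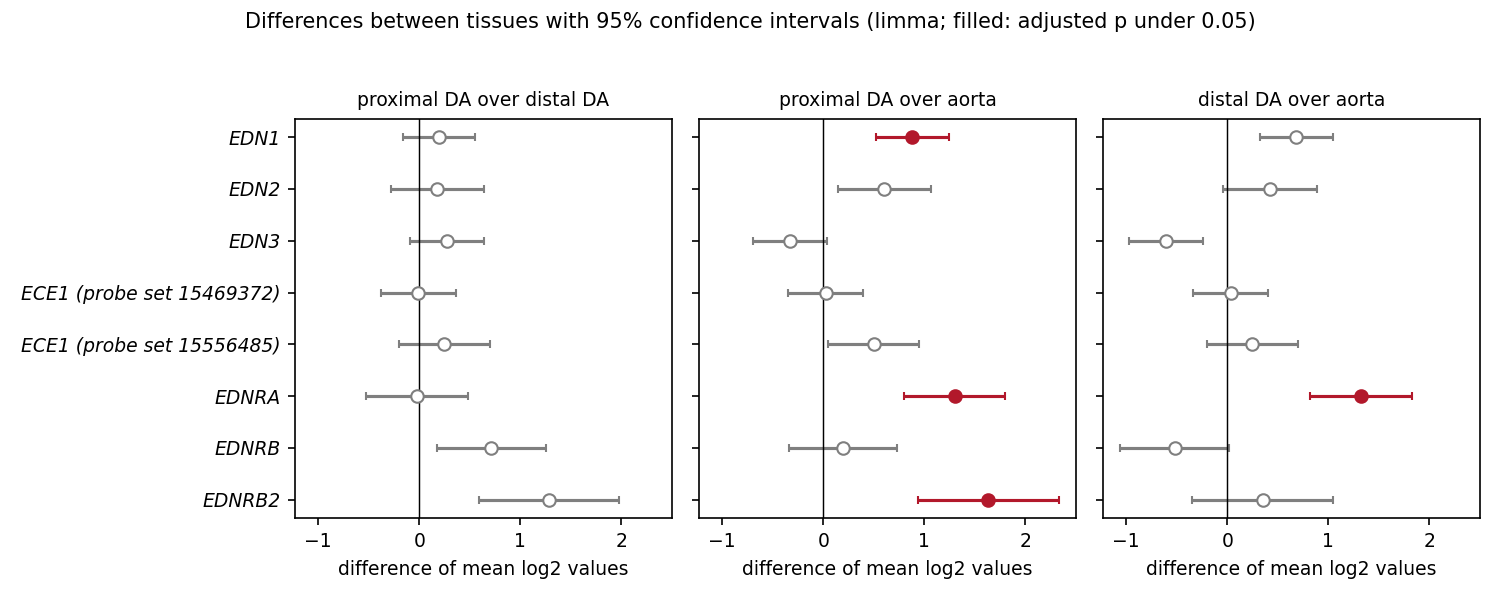
Difference of mean log2 values for each probe set in the 3 comparisons, with 95% confidence intervals from limma and filled points where the adjusted p was under 0.05. The filled points are *EDN1* (0.88), *EDNRA* (1.30) and *EDNRB2* (1.64) for the proximal DA over the aorta and *EDNRA* (1.32) for the distal DA over the aorta.

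Several pigment genes, but not all, differed between the 2 proximal arrays in the same direction as *EDNRB2*. Of 12 measured genes of the melanocyte lineage, 7 had a higher value in proximal DA replicate 2 than in replicate 1. The median difference of the 12 was 0.49, where the median over all probe sets was -0.04. Replicate 2 was lower for *SLC45A2* (-0.17), *SOX10* (-0.11), *PAX3* (-0.14), *KIT* (-0.21) and *MREG* (-0.17), and *MC1R* differed by only 0.19. Tyrosinase, *TYR*, the first enzyme of melanin synthesis, had 6.58 and 7.91 in the proximal DA, then 4.45 and 4.41 in the distal DA and 4.55 and 4.88 in the aorta. The other enzymes of the pathway, *TYRP1* with 6.15 and 7.46 and *DCT* with 6.59 and 7.39 in the proximal DA, were also higher in replicate 2. The melanosomal glycoprotein gene *GPNMB*, at 7.36 and 8.88, had the widest gap. All 4 were called higher in the proximal DA than the aorta. By quantitative PCR at the IP stage, the paper found *TYR* and *DCT* below the detection limit in the distal DA, and *TYRP1* higher in the proximal DA. On the arrays, the proximal minus the distal DA was 2.82 for *TYR*, 2.66 for *GPNMB*, 2.09 for *TYRP1* and 1.86 for *DCT*. Of the 12, *TYR* alone was called (limma adjusted p = 0.048), while *DCT* (0.0504), *GPNMB* (0.0747) and *TYRP1* (0.09) did not pass. At an unadjusted p under 0.05 there were 6 of the 12. The call of *TYR* was lost under the 3 other normalizations and without proximal DA replicate 2 or either distal DA array. Without proximal DA replicate 1, 3 of the 12 were called there.

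Over the 6 arrays, Pearson's r with *EDNRB2* was 0.954 for *TYR*, 0.981 for *TYRP1*, 0.985 for *DCT*, 0.988 for *GPNMB*, 0.941 for *OCA2* and 0.874 for *TRPM1*. This is a description, since arrays of a tissue are not independent of each other. For *TYR*, *TYRP1* and *DCT*, the 4 values of the distal DA and the aorta lay below the lower quartile of their array. Their r thus rests mainly on the 2 proximal DA arrays, and their folds are approximate. The other 6 genes of the list were less alike, with 0.671 for *MC1R*, 0.666 for *SOX10*, 0.49 for *SLC45A2*, 0.486 for *PAX3*, -0.198 for *KIT* and -0.51 for *MREG*. The lineage genes *SOX10*, *PAX3*, *KIT* and *MC1R*, which encode transcription factors and receptors of melanoblasts, were not called in any comparison. For *SOX10* the values were 6.87 and 6.76 in the proximal DA, with 6.11 and 6.18 in the distal DA and 6.43 and 6.47 in the aorta, while *PAX3* and *KIT* lay below the lower quartile in all 6 arrays. The mean level of the 12 genes was 6.16 and 6.65 in the 2 proximal DA arrays, 5.44 and 5.38 in the distal DA arrays and 5.33 and 5.49 in the aorta. Of 6 airway epithelial genes, 3 were called higher in the proximal DA against the aorta, the adhesion molecule gene *EPCAM* and the surfactant protein genes *SFTPA1* and *SFTPA2*, while *CDH1*, *KRT8* and *CLDN18* were not called. Of the 3, *SFTPA2* was also called against the distal DA. The paper gives these probe sets other names. It lists probe set 15528597, here *SFTPA2*, as *SFTPA1*, and probe set 15528591, here *SFTPA1*, as lung lectin. The mean over the 6 genes was 6.55 and 6.51 in the proximal DA, with 5.68 and 5.53 in the distal DA and 5.47 and 5.64 in the aorta. From proximal DA replicate 1 to 2, *EPCAM* went from 7.18 to 6.05, against the direction of *EDNRB2*. *SFTPA1* went from 5.84 to 6.69 and *SFTPA2* from 6.60 to 7.16. The count of 3 was 1 to 2 with any 1 array left out and 1 in a fit of only the proximal DA and the aorta, and the call against the distal DA was lost with any 1 DA array left out. Schwann cell and nerve genes, with 8 measured, had 0 calls by limma in all 3 comparisons (2 at an unadjusted p under 0.05 in each comparison of the proximal DA and 1 for the distal DA over the aorta). The list was measured in part only. *MBP*, also on it, was not found under a single symbol, and the paper lists it among its top genes for the proximal over the distal DA. The part of pigment cells or airway epithelium in the values of *EDNRB2* was not tested.

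**Figure D4:**
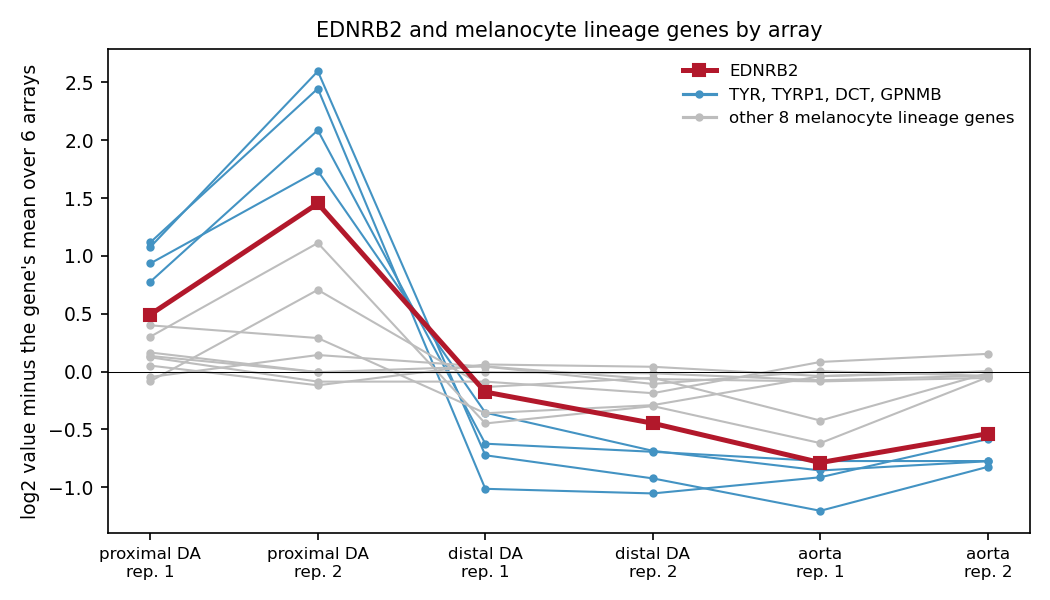
Log2 value of *EDNRB2* and of 12 melanocyte lineage genes in each array, minus the mean of the gene over the 6 arrays; lines join the arrays of a gene. *EDNRB2* and the pigment genes *TYR*, *TYRP1*, *DCT* and *GPNMB* peak in proximal DA replicate 2 (7.40 for *EDNRB2* and 7.91 for *TYR*), and the other 8 genes move over a narrower range than these 4.

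The proximal DA was also higher than the aorta in endothelial genes, as in *EDN1*. Of 11 measured endothelial markers, 7 were called higher in the proximal and 5 in the distal DA against the aorta, and 0 were lower. Their mean level was 8.84 and 8.93 in the proximal DA, then 8.61 and 8.55 in the distal DA and 7.64 and 7.63 in the aorta, with a median log2 difference of 1.37 for the proximal and 0.75 for the distal DA over the aorta. The calls in the distal DA numbered 3 without aorta replicate 2, 2 without distal DA replicate 1 and 1 without distal DA replicate 2. The junctional cadherin *CDH5* had 9.81 and 9.87 in the proximal DA, with 9.55 and 9.37 in the distal DA and 8.41 and 8.44 in the aorta. The order of the tissues in the mean level and in *CDH5* was that of *EDN1*. Between the parts of the DA, 0 of the 11 were called (5 at an unadjusted p under 0.05). *PECAM1* had a mean of 8.085 in the proximal and 8.22 in the distal DA, and *ERG* 10.765 and 10.79, so these 2 ran the other way. The part of endothelial content in the values of *EDN1* was not tested. Fibroblast and adventitia genes ran the other way, with 4 of 6 lower and 1 higher in the proximal DA against the aorta and a median log2 difference of -1.27.

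Profiles most like those of the called members were found by the root mean square (RMS) difference between log2 values centred on the mean of each probe set over the 6 arrays. The search covered the 12300 probe sets with 1 symbol and used these same arrays. Likeness to the member, also between replicates, thus follows from the choice of the nearest profiles. For *EDN1* they were those of *ANXA1*, *DACH2*, *MAP3K1* and *SPSB1*, with an RMS difference of 0.0462 to 0.0812 and a Pearson's r of 0.98 to 0.995. *ANXA1* encodes annexin A1, a phospholipid-binding protein, and *MAP3K1* a kinase upstream of JNK. The values of *ANXA1* were 8.85 and 8.92 in the 2 proximal DA arrays, 8.73 and 8.53 in the distal DA arrays and 8.10 and 7.79 in the aorta. For *EDNRA* the nearest were *MIR1645*, *FRY*, *ADAMTSL1* and *KCNMB1*, with an RMS difference of 0.0846 to 0.142. The last is the beta subunit of the calcium-activated potassium channel of smooth muscle, with 9.48 and 9.91 in the proximal DA, then 9.62 and 9.71 in the distal DA and 8.25 and 8.28 in the aorta. For *EDNRB2* they were *GJA5*, *SNAI1*, *SFTPA1* and *RRAD*, with an RMS difference of 0.126 to 0.19. *GJA5* encodes connexin 40 of arterial endothelium and the conduction system. It had 7.56 and 8.23 in the proximal DA, with 6.81 and 6.63 in the distal DA and 6.31 and 6.29 in the aorta. *SNAI1* encodes a transcriptional repressor of epithelial to mesenchymal transition, and had 8.96 and 9.64 in the proximal DA. The melanocyte gene nearest to *EDNRB2* was *DCT*, at an RMS difference of 0.266.

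Beyond the members, 40 genes on 5 lists around the endothelin system were measured, and the lists were mixed in direction. Of 11 genes of peptide processing and breakdown, 3 were called in the proximal DA against the aorta, 1 higher and 2 lower, 0 were called in the distal DA (2 at an unadjusted p under 0.05), and 1 was lower in the proximal relative to the distal DA. The neprilysin gene *MME*, whose peptidase degrades endothelins among other peptides, had 6.31 and 6.99 in the 2 proximal DA arrays, 5.04 and 5.15 in the distal DA arrays and 4.77 and 5.32 in the aorta. Its log2 difference from the aorta was 1.61 (limma adjusted p = 0.0141), with 4 of the 6 values below their lower quartile. The related *MMEL1* was lower, with a difference of -1.15 there (limma adjusted p = 0.0287). The distal DA differed from the aorta by a like amount, -1.175 (limma adjusted p = 0.0576), and the proximal from the distal DA by 0.025. Carboxypeptidase E, *CPE*, which trims peptide precursors, had 10.96 and 10.93 in the proximal DA, then 12.14 and 12.16 in the distal DA and 12.42 and 12.30 in the aorta. The proximal DA was lower, with a difference of -1.42 from the aorta (limma adjusted p = 0.00165) and of -1.21 from the distal DA (0.0286), and the second call was lost with any 1 DA array left out. The proprotein convertase *FURIN*, which prepares the big endothelins, was not called, with log2 differences of 0.03 for the proximal and -0.21 for the distal DA over the aorta. Without proximal DA replicate 2, *MME* (limma adjusted p = 0.0794) and *MMEL1* (0.152) lost their calls, and *MMEL1* also without aorta replicate 1 (0.0786) or proximal DA replicate 1 (0.102).

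On the nitric oxide side of the B receptor, 2 genes were measured, the subunits of soluble guanylate cyclase. The alpha subunit *GUCY1A3* had 5.65 and 5.51 in the 2 proximal DA arrays, 7.21 and 8.01 in the distal DA arrays and 8.21 and 8.40 in the aorta. The proximal DA was lower, by a difference of -2.73 from the aorta (limma adjusted p = 0.00151) and of -2.03 from the distal DA (0.0395), and the second call was lost with any 1 DA array left out and after quantile (0.0553) or cyclic loess (0.0552) normalization. The beta subunit *GUCY1B3* had 7.42 and 7.71 in the proximal DA, then 7.66 and 8.16 in the distal DA and 7.54 and 7.52 in the aorta, and was not called.

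Among 12 measured genes known to regulate *EDN1* transcription, 3 were higher in the proximal DA relative to the aorta, and 0 were called in the distal DA. At an unadjusted p under 0.05 there were 7 in the proximal DA, where *JUN* (-0.36), *HIF1A* (-1.2), *TGFB2* (-0.61) and *TGFB3* (-0.365) lay below the aorta. In the distal DA there were 4, with *GATA2*, *EGR1* and *EPAS1* above the aorta and *TGFB2* (-0.635) below it. The 3 called genes were the zinc finger factors *EGR1*, with a log2 difference of 1.32 (limma adjusted p = 0.0103), and *GATA2*, with 0.87 (0.0106), and the hypoxia inducible factor *EPAS1*, with 0.78 (0.029). In the distal DA over the aorta they had 0.96 (limma adjusted p = 0.0758), 0.43 (0.247) and 0.74 (0.0767). Of the 12 genes, 1 was called there with trend and robust and 2 among the brighter probe sets. Between the parts of the DA, 0 of the 12 were called, and *EPAS1* differed by 0.04. *GATA2*, an endothelial factor that binds the mammalian *EDN1* promoter, had 7.78 and 7.73 in the proximal DA, with 7.34 and 7.29 in the distal DA and 6.89 in both aorta arrays. All 3 lost their calls without proximal DA replicate 2, *GATA2* also without proximal DA replicate 1 (0.0534), and *EPAS1* without any of the other arrays but proximal DA replicate 1 (limma adjusted p from 0.0654 to 0.0903). The immediate early gene *FOS* had 5.93 and 8.56 in the 2 aorta arrays, which are far apart, and *KLF2*, a flow-responsive factor, had 7.95 and 9.48 there; both were named after their values were seen. The aorta values of *EDN1* itself, 7.20 and 7.01, were not apart in this way.

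Of 9 targets of *EDN1* and *EDNRA* signalling known from the pharyngeal arches of mouse and chick, 2 were higher in the proximal DA relative to the aorta and 1 in the distal DA. *MEF2C* had 9.09 and 9.40 in the 2 proximal DA arrays, 8.76 and 8.67 in the distal DA arrays and 8.16 and 8.07 in the aorta, a difference of 1.13 in the proximal DA (limma adjusted p = 0.00757). *GATA3* was higher by 1.16 on the proximal side (limma adjusted p = 0.00929), a call lost without proximal DA replicate 2 (0.0635), and by 0.95 on the distal side (0.0455), a call lost with any 1 array left out and under all 3 other normalizations. The other 7, *DLX3*, *DLX5*, *DLX6*, *HAND1*, *GSC*, *BARX1* and *NKX3-2*, were not called in the proximal DA. The list of receptor desensitization was measured in part only. *RGS16*, also on it, was not found under a single symbol, and the paper lists it among its top genes for both parts of the DA over the aorta. Of the 6 measured genes, 1 was called, *RGS5*, a regulator of G protein signalling that limits Gq and is known from pericytes and arterial smooth muscle. Its values were 9.85 and 9.72 in the proximal DA, then 7.95 and 8.18 in the distal DA and 7.56 and 7.70 in the aorta. The proximal DA was higher, by 2.16 over the aorta (limma adjusted p = 0.000591) and by 1.72 over the distal DA (0.0238), the second call being lost with any 1 DA array left out.

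**Figure D5:**
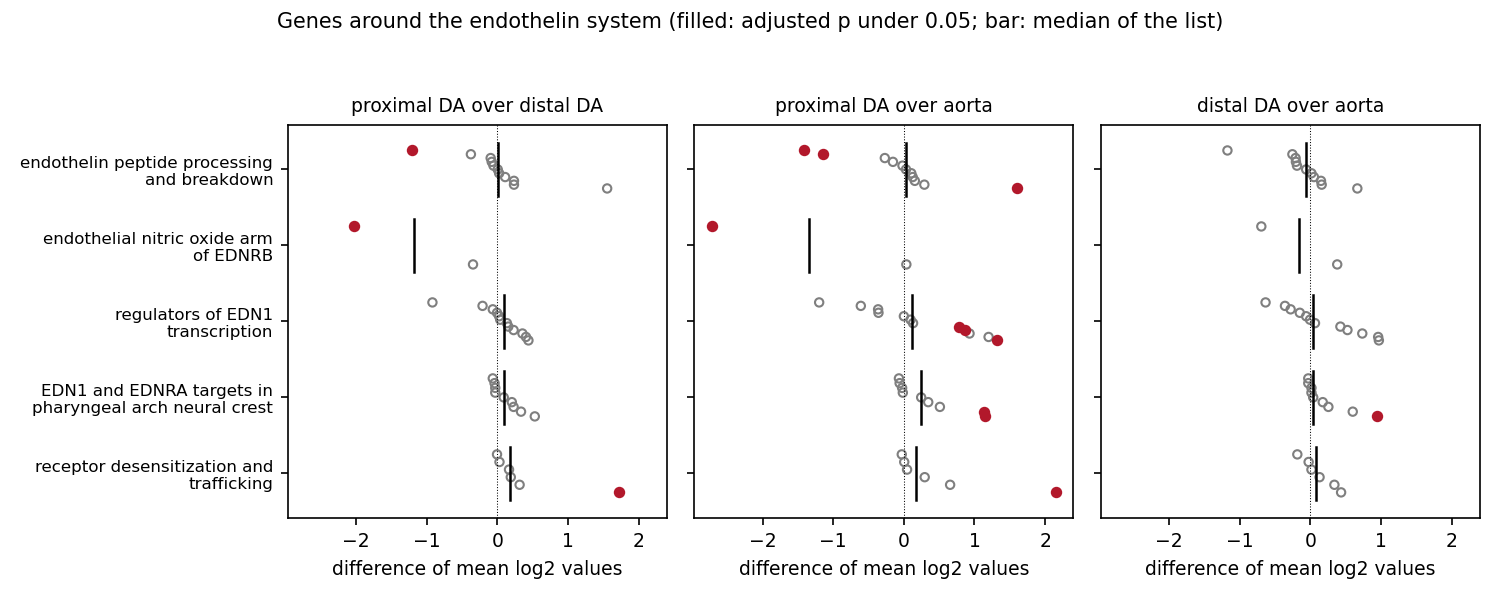
Difference of mean log2 values for each measured gene of 5 lists around the endothelin system in the 3 comparisons; filled points had an adjusted p under 0.05 by limma, and a bar marks the median of a list. The list medians lie between -0.06 and 0.25 outside the nitric oxide list, and the farthest are *GUCY1A3* (-2.73) and *RGS5* (2.16) for the proximal DA over the aorta.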

How the data were processed

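Arrays were Affymetrix GeneChip Chicken Gene 1.0 ST, with 100 ng of total RNA each. The deposited values are on the log2 scale, made by the authors through RMA (background correction, quantile normalization and summary of each probe set) in oligo 1.40.1 of Bioconductor 3.5; they are rounded to 2 decimals. Which genome build underlies the platform annotation is not stated in the sources used here. Values were used as deposited, and 0 columns were unmatched.

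A single linear model per probe set (lmFit, contrasts.fit and eBayes of limma 3.58.1, in R 4.3.3) was fitted to the 6 arrays, with tissue means as terms and 3 residual and 4.40 prior degrees of freedom. The number of arrays limits the precision. Members and lists were chosen with earlier results of these data known. Lists took each gene at its brightest probe set, by platform or current RefSeq symbol. Each list was measured in part only, since genes not found under a single symbol gave no value. Among these were *PMEL*, *MLANA* and *MITF* of the melanocyte list and *NOS3* of the nitric oxide list. 1 further list is not reported here. Of each list, up to 4 called genes with the largest difference were named; further list genes were named after their values were seen. The melanocyte, smooth muscle, endothelial and airway lists hold genes that the study names, and so do lists around the endothelin system. Of the latter, the paper has *MME* among its top genes for a high ratio of the proximal to the distal DA. It has *GUCY1A3* among those for a low ratio. These lists are not independent evidence. Alternatives were a fit of only 2 tissues, eBayes with trend and robust, 3 other normalizations, only the probe sets at or above the median mean level, a 2-fold minimum, leaving out each array and the replicate number as a block.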

Additional observations from a re-analysis of the deposited data

How the results depend on the processing

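Over the 8 endothelin probe sets and 3 comparisons, the alternatives other than leaving out 1 array were read first. Every value under them kept its direction and its side of the threshold except 6. A p that passes or fails with 2 arrays a tissue says little about stability. The fit of only 2 tissues left 0 probe sets called in the distal DA over the aorta, and a minimum of 2-fold ended the call of *EDN1* (0.88). *ECE1* probe set 15469372 changed sign close to 0: the proximal over the distal DA was 0.0225 after quantile, 0.0188 after cyclic loess and 0.005 after median centring, and the distal DA over the aorta was -0.00537 after cyclic loess. With 1 array left out, the probe sets called ranged from 0 to 3 in the proximal DA over the aorta, were 0 in the distal DA over the aorta and 0 between the parts of the DA. Sign changes were then confined to uncalled values: for the proximal over the distal DA, *EDN2* ranged from -0.045 to 0.41, *EDNRA* from -0.29 to 0.25 and *ECE1* probe set 15469372 from -0.17 to 0.15. In the proximal DA over the aorta, that probe set ranged from -0.14 to 0.19 and *EDNRB* from -0.015 to 0.41, and in the distal DA over the aorta the probe set ranged from -0.025 to 0.095.

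With the replicate number as a block, the members called were 3 for the proximal DA over the aorta, 1 for the distal DA over the aorta and 0 between the parts of the DA, as without it, while *CPE* (limma adjusted p = 0.0618), *GUCY1A3* (0.0737), *RGS5* (0.0618) and *TYR* lost their calls between the parts of the DA. The deviations of same-numbered arrays from their tissue means had r = 0.321 between the parts of the DA and 0.199 for the distal DA with the aorta. For the proximal DA with the aorta r was -0.0339. These values cannot decide whether the numbers pair the arrays, which the sources used here leave unstated. Over all probe sets, 52 were called between the parts of the DA, and 0 with the block (1843 at an unadjusted p under 0.05), 80 with trend and robust, 107 among the brighter probe sets and 0 to 55 with 1 array left out. The 1178 calls of the proximal DA over the aorta were 691 at a minimum of 2-fold and 452 to 1070 with 1 array left out, and the 332 of the distal DA were 52 to 250. *EDNRB*, *EDNRB2* and 1 *ECE1* probe set lay outside the brighter probe sets and gave no value there. The cause of these changes was not tested.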
